A study of Homo sapiens with 26 samples.

Results

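Lysosomal genes and GPNMB were followed through 2 experiments on NOTCH3 signalling in cultured MDA-MB-468 cells, a human breast cancer line of the basal, triple-negative type. The set was a list of 45 genes given by name, of which 43 could be tested among 19775 genes on the arrays. CD68 and GLB1 were not tested, because the probe sets that name them also name other genes. The 43 were GPNMB, 5 lysosomal membrane proteins, 8 cathepsins, 8 glycosidases, 4 sulfatases, 6 genes of lipid handling, 2 other hydrolases, 7 subunits or partners of the proton pump, the channel MCOLN1 and the regulator TFEB. Each gene was read from the brightest of the probe sets that name only that gene.

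RNA was measured on 26 Affymetrix HG-U133 Plus 2.0 arrays. In the antagonism experiment 2500000 cells were plated per dish, grown for 40 h and treated for 24 h. The control (agD/DMSO, 3 arrays) had 10 µg/ml of an anti-gD IgG with 0.05% DMSO. The agD/DAPT group (3 arrays) had the same IgG with 5 µM DAPT, an inhibitor of gamma-secretase, the enzyme that releases the active part of Notch receptors. The aN3/DMSO group (2 arrays) had 10 µg/ml of the NOTCH3 antibody A4 with 0.05% DMSO. In the agonism experiment 6250000 cells were plated per dish and each of 6 groups had 3 arrays. Cells of the DMSO group had 0.05% DMSO and no DAPT. Cells of the other 5 groups all had 5 µM DAPT for 16 h, and every plate then spent 2 h in plain medium. DAPT was then given back to the DAPT group, and DMSO to the DMSO group, with a further addition of each at 22 h. The agD group had 20 µg/ml of control IgG, the aN3 A13 group 20 µg/ml of the agonist NOTCH3 antibody A13, the Fc-B group beads coated with Fc, and the J1-B group beads coated with the Notch ligand JAG1 fused to Fc. All arrays analysed here are labelled 24 h. The sources used here do not give the amount of beads. Whether arrays of 1 group are separate cultures is not stated in the labels, so p-values reflect only the spread between these samples, and that spread may be technical.

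Lysosomes are acidic organelles in which hydrolases break down proteins, sugar chains and lipids that arrive by endocytosis, phagocytosis and autophagy. A proton pump, the V-ATPase, keeps them acidic, and heavily glycosylated membrane proteins such as LAMP1 and LAMP2 line their inner face. TFEB and its relatives TFE3 and MITF are transcription factors that enter the nucleus when lysosomes are stressed or nutrients are short, and they bind E-box sequences near the start of many lysosomal genes. GPNMB is a transmembrane glycoprotein of melanosomes and lysosomes that MITF family factors can drive, and it is used as a marker of lysosomal load in phagocytic cells. It is also expressed in part of triple-negative breast cancers.

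RefSeq promoter windows (build GRCh38.p14, 250 bases before to 50 after the start) were at hand for 28 of the 43 genes. The 6 letters CACGTG, the core of the E-box of lysosomal genes, were in 9 of these 28 windows (32.1%) and in 8.9% of 15384 windows of tested genes. The 9 genes were LAMP1, CD63, CLN3, CTSA, CTSD, GAA, NEU1, MCOLN1 and ATP6V0D1. The longer TCACGTGA, which contains CACGTG, was in 6 (21.4%, against 1.45%). Its extension by a G before and a C after was in 2, GAA and MCOLN1 (7.14%, against 0.585%). TCATGTG, a motif bound by MITF in pigment cells, was in 6 (21.4%, against 2.22%). Both strands were searched, and a match is a run of letters, not a measured binding site. The stretches below begin with GPNMB, the gene that rose most for beads against antibody. Its window carries the second kind of motif and no CACGTG. The hydrolase and membrane genes that follow carry the first, but the kinds do not divide the genes. CTSA and CD63 carry both in their windows, and NPC1 carries neither. The stretches are written 5′ to 3′ on the gene's own strand with the motif in capitals (CACATGA is TCATGTG read on the other strand). The CTSA stretch also holds a further CACGTG and a CACATGA, left in lower case.
GPNMB, plus strand, chr7:23246632-23246678: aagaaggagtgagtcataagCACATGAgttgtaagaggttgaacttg
GPNMB, plus strand, chr7:23246693-23246739: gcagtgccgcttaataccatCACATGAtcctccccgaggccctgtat
LAMP1, plus strand, chr13:113297190-113297237: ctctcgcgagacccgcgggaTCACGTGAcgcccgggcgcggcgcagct
MCOLN1, plus strand, chr19:7522589-7522623: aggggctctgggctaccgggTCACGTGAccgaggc
GAA, plus strand, chr17:80101529-80101576: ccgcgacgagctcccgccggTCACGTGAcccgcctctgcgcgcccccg
CTSA, plus strand, chr20:45891289-45891334: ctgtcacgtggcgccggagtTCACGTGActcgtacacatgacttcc
CTSD, minus strand, chr11:1763949-1763994: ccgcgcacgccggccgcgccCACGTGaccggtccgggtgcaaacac
ATP6V0D1, minus strand, chr16:67481190-67481237: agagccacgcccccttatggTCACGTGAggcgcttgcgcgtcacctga
All of these stretches end before the annotated start of transcription.

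The median log2 intensity of an array was 7.60 to 7.65 in the antagonism experiment. It was 6.84 to 6.88 on agonism arrays, and levels were not compared between experiments. Among basal markers EGFR lay between the 98.6th and 99.8th percentile of genes, KRT5 between the 94.1st and 99.4th, CDH3 between the 84.6th and 91.1st and KRT14 between the 54.4th and 79.3rd. Of the hormone receptors and HER2, PGR lay between the 14th and 20.6th percentile, ESR1 between the 29.3rd and 57.2nd and ERBB2 between the 67.2nd and 76.7th. NRARP, a feedback inhibitor switched on by Notch, served as a check of the treatments. It was higher by 1.90 ± 0.07 with A13 than with agD and by 1.01 ± 0.07 with J1-B than with Fc-B (log2 change ± SE from limma, 3 arrays against 3). Array 2 of the antagonism control stood apart. Over all genes the SD of its log2 differences from its fellow controls was 0.247 and 0.320, against 0.129 to 0.167 for other pairs of that experiment.

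In the agonism experiment GPNMB was higher on every bead array than on every array without beads. The log2 values were 9.98, 9.70 and 9.81 with Fc-B and 10.32, 10.46 and 10.56 with J1-B. The agD arrays read 7.88, 8.01 and 8.001, and the A13 arrays 8.42, 8.41 and 8.60. The arrays of these 4 groups did not overlap with those of any other of the 4. Levels on DMSO arrays (7.84, 7.81 and 7.78) and DAPT arrays (7.66, 7.61 and 7.71) lay lowest, so that the order of means ran J1-B, Fc-B, A13, agD, DMSO, DAPT. The last pairs in that order, agD with DMSO (adjusted p = 0.155) and DMSO with DAPT (adjusted p = 0.195, both by limma), did not differ beyond the test's threshold.

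**Figure D1:**
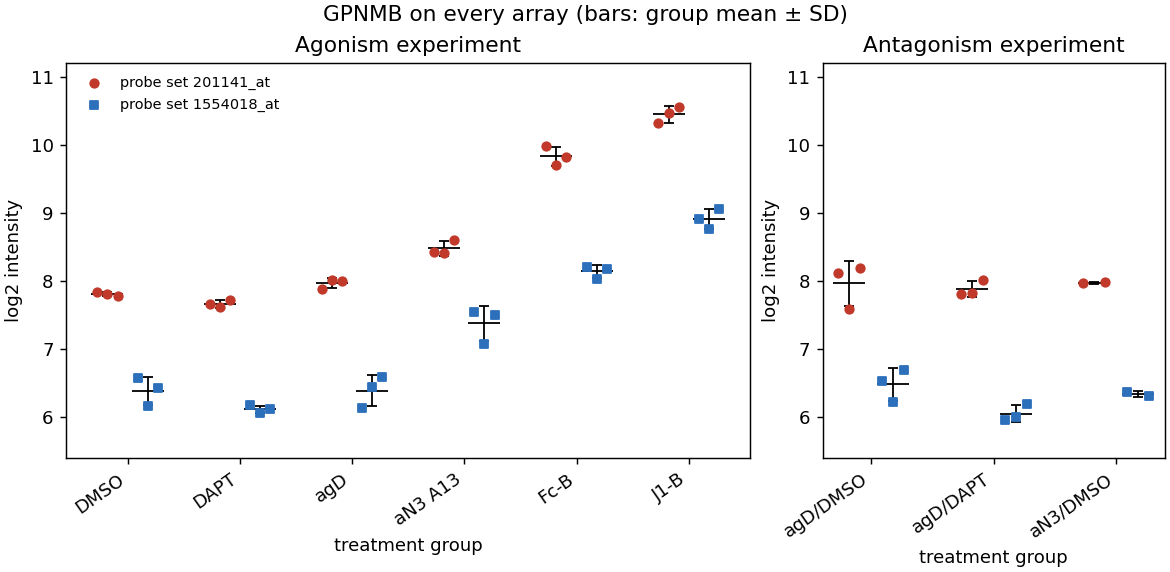
Log2 intensity of GPNMB on every array, by treatment group, for the probe set used and for the dimmer second probe set; points are arrays and bars are group means ± SD. The 6 bead arrays sit between 9.70 and 10.56 for the probe set used, above all others of their experiment.

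Against agD, Fc beads raised GPNMB by 1.86 ± 0.08, or 3.64-fold (limma, adjusted p = 1.28e-10), which ranked 1 among 19775 rises. Against A13, JAG1 beads raised it by 1.97 ± 0.08, or 3.92-fold (adjusted p = 1.66e-11), rank 3. For the mean of both bead groups against the mean of both antibody groups the change was 1.92 ± 0.06, or 3.78-fold (adjusted p = 1.51e-13), rank 1. A change counts as a rise or fall here when limma's p, adjusted by Benjamini-Hochberg over all genes, was under 0.05. The second GPNMB probe set gave 1.64 ± 0.09 for beads against antibody. The bead effect with the agonist minus that without it was 0.11 ± 0.11 (95% interval -0.13 to 0.34, adjusted p = 0.948), so no difference passed. The bead groups differ from the antibody groups in the beads, in Fc against whole IgG and, for J1-B, in the ligand; these were not separated. The arrays read RNA of whole plates, so more RNA per cell and more cells with the RNA cannot be told apart.

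GPNMB is also a gene of macrophages, and 8 macrophage markers were read beside it. For beads against antibody 0 of the 8 passed by limma, and 0 had an unadjusted p under 0.05. The mean log2 level of the 8 lay between 6.88 and 6.95 on Fc-B arrays, 6.77 and 6.85 on J1-B, 6.88 and 7.02 on agD and 6.73 and 6.82 on A13. PTPRC, which encodes the pan-leukocyte protein CD45, lay between the 6.27th and 8.63rd percentile of genes in the agonism experiment, CD163 between the 12.8th and 18.6th, and TYROBP between the 12.3rd and 19.5th. CD14 was brighter, between the 72.8th and 82.9th, and was lower with Fc-B than with agD (-0.33 ± 0.08, adjusted p = 0.0398). The table gives no detection calls, and the part of these markers in the GPNMB result was not tested. The difference between 3′ and 5′ control probe sets, a sign of RNA integrity, lay between -0.17 and -0.12 for GAPDH and between 0.10 and 0.26 for actin on the 18 agonism arrays.

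Few of the other lysosomal genes rose with beads. For Fc-B against agD 2 of 43 rose and 0 fell, where 1.64% of all genes rose and 0.44% fell. For J1-B against A13 5 rose and 0 fell (4.72% and 1.64% of all genes). For both bead groups against both antibody groups 5 rose and 0 fell (8.31% and 3.35%). The share of higher calls among all genes depended on scaling. With each array centred on its median, 656 of 1115 calls were higher for J1-B against A13, in place of 934 of 1259, and the set had 3 rises. For beads against antibody 1302 of 2212 were higher in place of 1644 of 2307, and the set had 5 rises and 1 fall. For Fc-B against agD, repeated quantile normalization gave 340 of 540 in place of 324 of 411, and 2 rises in the set. The median change of the 43 was 0.01, 0.14 and 0.07 in these comparisons, in that order, and that of all genes -0.01, 0.02 and 0.001.

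NPC1, which carries cholesterol out of lysosomes, was the second gene to rise in each of them. Its log2 values were 9.44, 9.38 and 9.45 with Fc-B, 9.41, 9.42 and 9.51 with J1-B, 9.12, 9.22 and 9.04 with agD, and 8.98, 8.90 and 9.10 with A13. All 6 bead arrays lay above all 6 antibody arrays. The change was 0.30 ± 0.07 for Fc-B against agD (adjusted p = 0.0294), 0.45 ± 0.07 for J1-B against A13 (adjusted p = 0.000729) and 0.38 ± 0.05 for both (adjusted p = 8.76e-05, limma). The call against agD was lost without agD array 1 (0.2972, adjusted p = 0.117) or 3 (0.2570, adjusted p = 0.121) and without Fc-B array 1 (0.2942, adjusted p = 0.123), 2 (0.3222, adjusted p = 0.0513) or 3 (0.2873, adjusted p = 0.0932). With the mean of all NPC1 probe sets, 3 of which are far dimmer, all 3 calls were lost (changes of 0.11, 0.15 and 0.13).

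CTSA, or protective protein/cathepsin A, a carboxypeptidase that stabilises other lysosomal enzymes, read 10.99, 11.05 and 10.97 with Fc-B and 10.79, 10.82 and 10.76 with J1-B, against 10.94, 10.84 and 10.94 with agD and 10.54, 10.496 and 10.59 with A13. It rose by 0.25 ± 0.06 with J1-B against A13 (adjusted p = 0.0157) and by 0.17 ± 0.04 for both bead groups (adjusted p = 0.0106), and changed by 0.10 ± 0.06 with Fc-B against agD (adjusted p = 0.479). The J1-B arrays thus lay above A13 and below agD. Its call for both bead groups was kept under all 19 alternatives. The call for J1-B against A13 was lost under 3 of 13, namely without J1-B array 2, A13 array 1 or A13 array 2.

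IDS, the sulfatase that acts on heparan and dermatan sulfate, read 10.05, 10.04 and 10.00 with Fc-B, 9.72, 9.93 and 9.77 with J1-B, 9.65, 9.81 and 9.97 with agD, and 9.61, 9.47 and 9.49 with A13. It rose by 0.28 ± 0.08 for J1-B against A13 (adjusted p = 0.0357) and by 0.25 ± 0.06 for both bead groups (adjusted p = 0.00546). TPP1, a tripeptidase lost in a childhood neuronal storage disease, read 9.07, 8.97 and 9.05 with Fc-B, 8.90, 9.05 and 8.86 with J1-B, 8.79, 8.91 and 9.03 with agD, and 8.69, 8.66 and 8.73 with A13. It rose by 0.24 ± 0.07 for J1-B against A13 (adjusted p = 0.0365) and by 0.18 ± 0.05 for both (adjusted p = 0.0177). The Fc-B arrays lay just above the agD arrays for IDS and overlapped them for TPP1, and neither gene passed there (0.22 and 0.12). The calls against A13 were lost under 8 of 13 alternatives for IDS and 10 of 13 for TPP1, left-out arrays among them. The calls for both bead groups were lost under 1 of 19 for IDS and 4 of 19 for TPP1, changes of probe set among them. The changes went down to 0.09 for IDS and 0.03 for TPP1. J1-B against A13 also compares different agonists. Of 4 Notch genes read as a check, 2 were lower for J1-B against A13 and 2 for both bead groups, by limma. Of all genes 1.64% and 3.35% were lower there. CTSA, IDS and TPP1 fell with A13 against agD, and the part of Notch activity in their rises was not tested.

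The membrane protein LAMP1 read 13.48, 13.51 and 13.52 with Fc-B, 13.46, 13.47 and 13.50 with J1-B, 13.40, 13.45 and 13.45 with agD, and 13.33, 13.32 and 13.37 with A13. MCOLN1, a calcium channel of the lysosome, read 8.90, 8.90 and 8.89 with Fc-B, 8.95, 8.98 and 9.03 with J1-B, 8.87, 8.84 and 8.80 with agD, and 8.82, 8.74 and 8.87 with A13. In both genes every bead array was above every antibody array, which held for 4 of the 43 (GPNMB, LAMP1, NPC1 and MCOLN1) and for 2.64% of all genes. The changes were 0.10 ± 0.05 (adjusted p = 0.175) for LAMP1 and 0.12 ± 0.04 (adjusted p = 0.0703) for MCOLN1, so neither passed.

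TFEB read 8.08, 8.06 and 8.07 with Fc-B, 8.19, 8.08 and 8.20 with J1-B, 8.13, 7.93 and 7.92 with agD, and 8.07, 8.01 and 7.98 with A13. Bead and antibody arrays overlapped, and the change was 0.11 ± 0.05 (95% interval 0.01 to 0.20, adjusted p = 0.161). LAMP2 read 12.07, 12.06 and 12.02 with Fc-B, 11.85, 11.95 and 11.90 with J1-B, 12.12, 12.06 and 12.08 with agD, and 11.78, 11.80 and 11.88 with A13. Its groups overlapped too, with a change of 0.02 ± 0.04 (95% interval -0.06 to 0.10, adjusted p = 0.787).

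Of the V-ATPase genes 0 of 7 passed for beads against antibody by limma, 0 at an unadjusted p under 0.05, with changes between -0.08 for ATP6V0D2 and 0.09 for ATP6AP1. A dimmer ATP6V0D2 probe set differed, at 0.34 ± 0.06. CTSB (0.06), CTSK (0.05), CTSL (0.07), CTSZ (0.10), GLA (0.09), GUSB (0.08), NAGLU (0.15), ARSA (0.15), ARSB (-0.01) and NPC2 (0.03) did not pass, nor did the rest of the set. The test of whether the bead effect differed between agonist and control plates passed for 0 of 43 by limma (0.182% of all genes), while 6 of 43 had an unadjusted p under 0.05 (5.93% of all genes) and 40 of 43 had a positive difference (58.6% of all genes). The widest was ATP6V0D2 at 0.44 ± 0.14 (adjusted p = 0.472).

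Other lists of lysosome genes were read in the same comparison, beads against antibody. Of 17 measured genes of the TFEB family and of nutrient sensing at the lysosome 7 rose and 0 fell. FNIP1, which works with folliculin on the Rag GTPases, rose by 0.41 ± 0.07, the Rag GTPase RRAGD by 0.34 ± 0.06 and FNIP2 by 0.31 ± 0.07. RRAGC, MTOR, RPTOR and the TFEB relative TFE3 rose as well. For Fc-B against agD alone 0 of the 17 passed by limma (9 at an unadjusted p under 0.05, as did 14.6% of all genes), and for J1-B against A13 3 did. Of 16 autophagy genes 6 rose and 0 fell, against 1 for Fc-B and 3 for J1-B taken alone. Among all genes 1.64% rose for Fc-B against agD, 4.72% for J1-B against A13 and 8.31% for both bead groups. The autophagy receptor SQSTM1 rose by 0.70 ± 0.05 and had the widest change, and it also rose in each bead comparison alone (0.52 ± 0.07 with Fc-B and 0.88 ± 0.07 with J1-B). The kinase ULK1 rose by 0.38 ± 0.08 and GABARAPL1, a protein of the autophagosome membrane, by 0.36 ± 0.08.

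Further hydrolases and activators gave 3 rises and 1 fall of 21. PLBD2 rose by 0.16 ± 0.05, the acid nuclease DNASE2 by 0.16 ± 0.03 and the peptidase DPP7 by 0.15 ± 0.04, while cathepsin C (CTSC) fell by 0.14 ± 0.04. Further membrane proteins gave 1 rise and 2 falls of 18, namely TPCN1 (0.17 ± 0.05), CD164 (-0.14 ± 0.03) and LAPTM4A (-0.13 ± 0.03). Of 9 genes that sort lysosomal enzymes 2 rose, the mannose 6-phosphate receptor IGF2R by 0.40 ± 0.07 and the adaptor GGA3 by 0.15 ± 0.05. Of 16 other V-ATPase subunits 0 passed by limma, while 4 had an unadjusted p under 0.05, a share near the 24.3% of all genes. Of all genes 8.31% were called higher and 3.35% lower in this comparison.

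**Figure D2:**
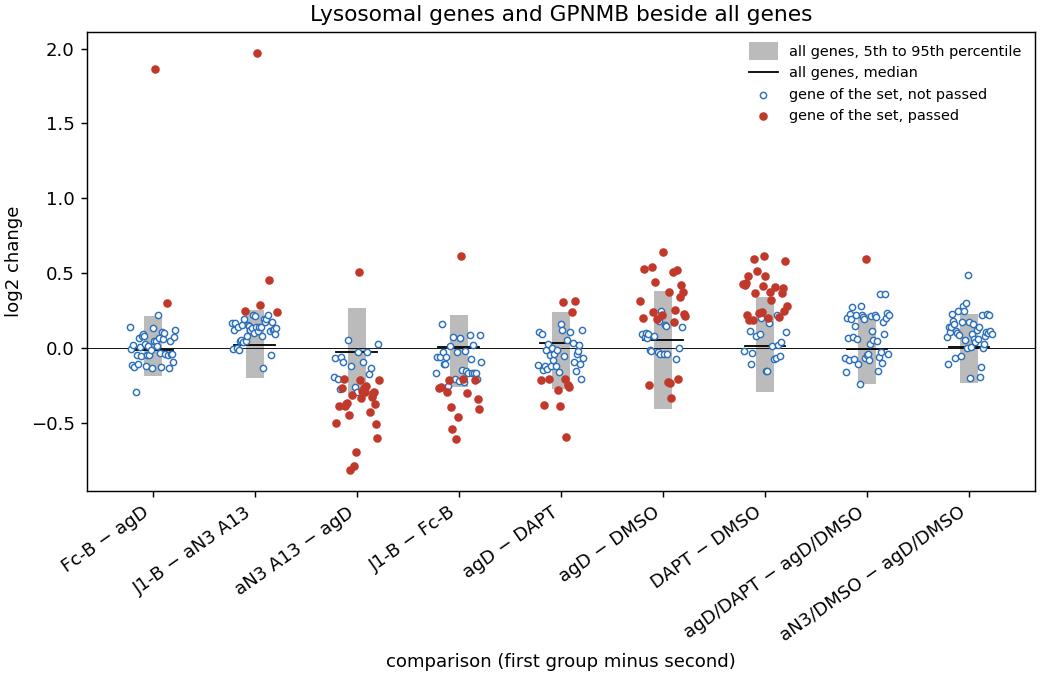
Log2 change of each of the 43 genes (points) in each comparison, with the 5th to 95th percentile of all 19775 genes as a bar. GPNMB stands clear of the bar in the bead comparisons, and the set as a group lies below the all-gene median with A13 and above it with DAPT.

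With either agonist more genes of the set fell than rose. With A13 against agD 26 of the 43 genes fell and 1, GPNMB, rose, where 9.02% of all genes fell and 5.68% rose. With J1-B against Fc-B 13 fell and GPNMB rose (5.14% and 2.97% of all genes). The median change of the 43 was -0.27 with A13 and -0.17 with J1-B, and that of all genes -0.03 and 0.01. Centring each array on its median left 22 falls and GPNMB's rise with A13, while the higher calls of all genes went from 1124 of 2908 to 1483 of 2869. These comparisons share no arrays. All 13 genes that fell with J1-B also fell with A13, 100% of the shorter list and 50% of the longer; for all genes the shares were 82.5% and 47%.

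**Figure D3:**
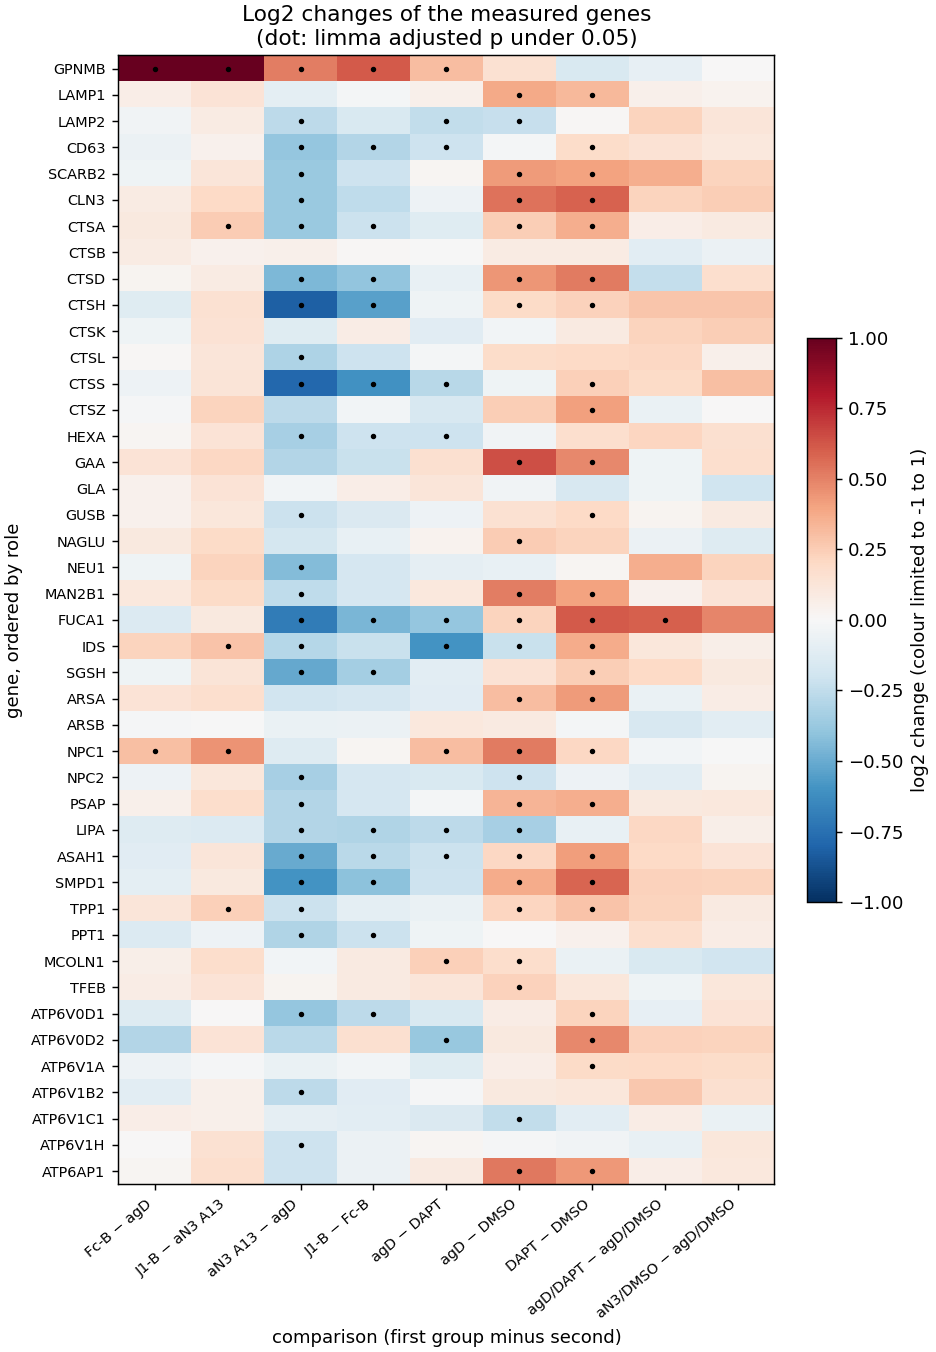
Log2 change of each of the 43 genes (rows, by role) in 9 comparisons (columns), coloured between -1 and 1, with a dot where limma's adjusted p was under 0.05. The columns for A13 and J1-B are mostly negative with GPNMB positive, and the column for DAPT against DMSO is mostly positive.

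Among the cathepsins, proteases of the lysosome, 5 of 8 fell with A13 and 4 with J1-B. CTSH, an aminopeptidase, read 12.36, 12.36 and 12.30 with agD and 11.42, 11.50 and 11.66 with A13. On bead arrays it read 12.17, 12.28 and 12.21 with Fc-B and 11.62, 11.69 and 11.73 with J1-B. Neither pair of groups overlapped. It fell by 0.81 ± 0.06 with A13 (0.569-fold, adjusted p = 6.24e-08) and by 0.54 ± 0.06 with J1-B (0.688-fold, adjusted p = 1.96e-05).

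CTSS, a protease known for antigen processing, read 8.69, 8.55 and 8.55 with agD and 7.77, 7.80 and 7.86 with A13, then 8.61, 8.59 and 8.44 with Fc-B and 7.90, 7.98 and 7.95 with J1-B. Both agonist groups lay below both of their controls. It fell by 0.79 ± 0.07 (0.58-fold, adjusted p = 2.06e-07) and 0.61 ± 0.07 (0.656-fold, adjusted p = 1.24e-05), and its other 2 probe sets fell with A13 as well. CTSD, the main aspartic protease, fell by 0.45 ± 0.08 and 0.39 ± 0.08, and CTSA by 0.37 ± 0.06 and 0.21 ± 0.06. The CTSA call with J1-B was lost under 7 of 13 alternatives, 5 of them left-out arrays. CTSL fell with A13 (-0.31 ± 0.07) and changed by -0.21 with J1-B. CTSB (0.05 ± 0.05, adjusted p = 0.648), CTSK (-0.12 ± 0.06, adjusted p = 0.25) and CTSZ (-0.26 ± 0.10, adjusted p = 0.113) did not pass with A13.

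Of the 8 glycosidases, which trim sugar chains, 5 fell with A13 and 2 with J1-B. FUCA1, an alpha-L-fucosidase, read 10.43, 10.49 and 10.45 with agD, 9.71, 9.75 and 9.82 with A13, 10.34, 10.37 and 10.26 with Fc-B, and 9.77, 9.89 and 9.94 with J1-B. Agonist and control arrays did not overlap, and it fell by 0.70 ± 0.07 (0.617-fold, adjusted p = 1.08e-06) and 0.46 ± 0.07 (0.727-fold, adjusted p = 0.0003). Its second probe set, far dimmer, did not move (0.03 ± 0.10 with A13). NEU1, a sialidase, fell by 0.43 ± 0.08 with A13, the hexosaminidase subunit HEXA by 0.33 ± 0.06, MAN2B1, an alpha-mannosidase, by 0.26 ± 0.08 and the glucuronidase GUSB by 0.21 ± 0.07. The MAN2B1 call was lost under 6 of 12 alternatives and the GUSB call under 8 of 13. The HEXA call with A13 was lost under 2 of 13, with changes down to -0.03. These were the mean of all its probe sets and the removal of those ending in _s_at or _x_at. HEXA also fell with J1-B (-0.21 ± 0.06), which was lost under 9 of 13 alternatives, with a change of 0.02 on its brightest probe set without an _s_at or _x_at ending. GAA (-0.30), NAGLU (-0.17) and GLA (-0.03) did not pass with A13.

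Of the lipid genes 5 of 6 fell with A13 and 3 with J1-B. SMPD1, the acid sphingomyelinase, read 8.57, 8.79 and 8.76 with agD, 8.05, 8.07 and 8.20 with A13, 8.66, 8.62 and 8.55 with Fc-B, and 8.14, 8.24 and 8.23 with J1-B. It fell by 0.60 ± 0.07 (0.66-fold, adjusted p = 4.67e-06) and 0.41 ± 0.07 (0.754-fold, adjusted p = 0.000713). This reading depends on the probe set, since the brightest SMPD1 probe set without an _s_at or _x_at ending, which mark probes that can detect related transcripts, gave 0.04 ± 0.08 with A13. The acid ceramidase ASAH1 fell by 0.50 ± 0.05 and 0.27 ± 0.05, and LIPA, the acid lipase, by 0.29 ± 0.07 and 0.30 ± 0.07. On the brightest ASAH1 probe set without an _s_at or _x_at ending the call with A13 was lost (-0.17, limma adjusted p = 0.106). NPC2, the soluble partner of NPC1, fell by 0.33 ± 0.07 with A13, as did PSAP, the precursor of the saposins, by 0.29 ± 0.05. NPC1 itself changed by -0.13 with A13 and 0.02 with J1-B.

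Of the 5 membrane proteins 4 fell with A13 and 1 with J1-B. LAMP2 fell by 0.26 ± 0.05 with A13 (adjusted p = 0.00213) and changed by -0.15 ± 0.05 with J1-B (adjusted p = 0.102). The tetraspanin CD63 fell by 0.39 ± 0.06 and 0.29 ± 0.06, and SCARB2, the receptor that delivers glucocerebrosidase, and CLN3 each by 0.37 with A13. LAMP1 (-0.09 ± 0.07 and -0.02 ± 0.07) did not pass. Of the sulfatases SGSH fell in both (-0.51 ± 0.08 and -0.34 ± 0.08) and IDS with A13 (-0.29 ± 0.08), while ARSA (-0.19) and ARSB (-0.06) did not pass with A13. PPT1, which removes palmitate from proteins, fell in both (-0.30 ± 0.05 and -0.22 ± 0.05), and TPP1 with A13 (-0.22 ± 0.07), a call lost under 7 of 13 alternatives.

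Of the V-ATPase genes 3 of 7 fell with A13 and 1 with J1-B. ATP6V0D1, a subunit of the membrane part, fell by 0.39 ± 0.06 and 0.26 ± 0.06. ATP6V1B2 fell by 0.26 ± 0.06 and ATP6V1H by 0.21 ± 0.06 with A13, both subunits of the part that hydrolyses ATP. The ATP6V1H call was lost under 9 of 13 alternatives, with changes down to -0.04. ATP6V1A (-0.06), ATP6V1C1 (-0.09), ATP6AP1 (-0.21) and ATP6V0D2 (-0.27) did not pass with A13. MCOLN1 (-0.03 ± 0.06 and 0.09 ± 0.06) and TFEB (0.03 ± 0.06 and 0.09 ± 0.06) passed with neither agonist.

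GPNMB rose with both agonists, by 0.51 ± 0.08 with A13 (1.43-fold, adjusted p = 0.000153; rank 188 among all rises) and by 0.62 ± 0.08 with J1-B (1.53-fold, adjusted p = 4.96e-05; rank 35). No agonist array overlapped its controls, and the second probe set rose by 0.99 ± 0.13 with A13. Every array of the agonist lay below every control array for 33 of 43 genes with A13 (18.2% of all genes) and for 26 with J1-B (13.9%). The change with J1-B minus that with A13 is the same contrast as the difference of the bead effects above, in which 0 of 43 passed and 40 were positive. For CTSH it was 0.27 ± 0.09 (95% interval 0.09 to 0.46, adjusted p = 0.531). Compared directly, J1-B arrays lay above all A13 arrays for 19 of 43 genes (17.3% of all genes).

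**Figure D4:**
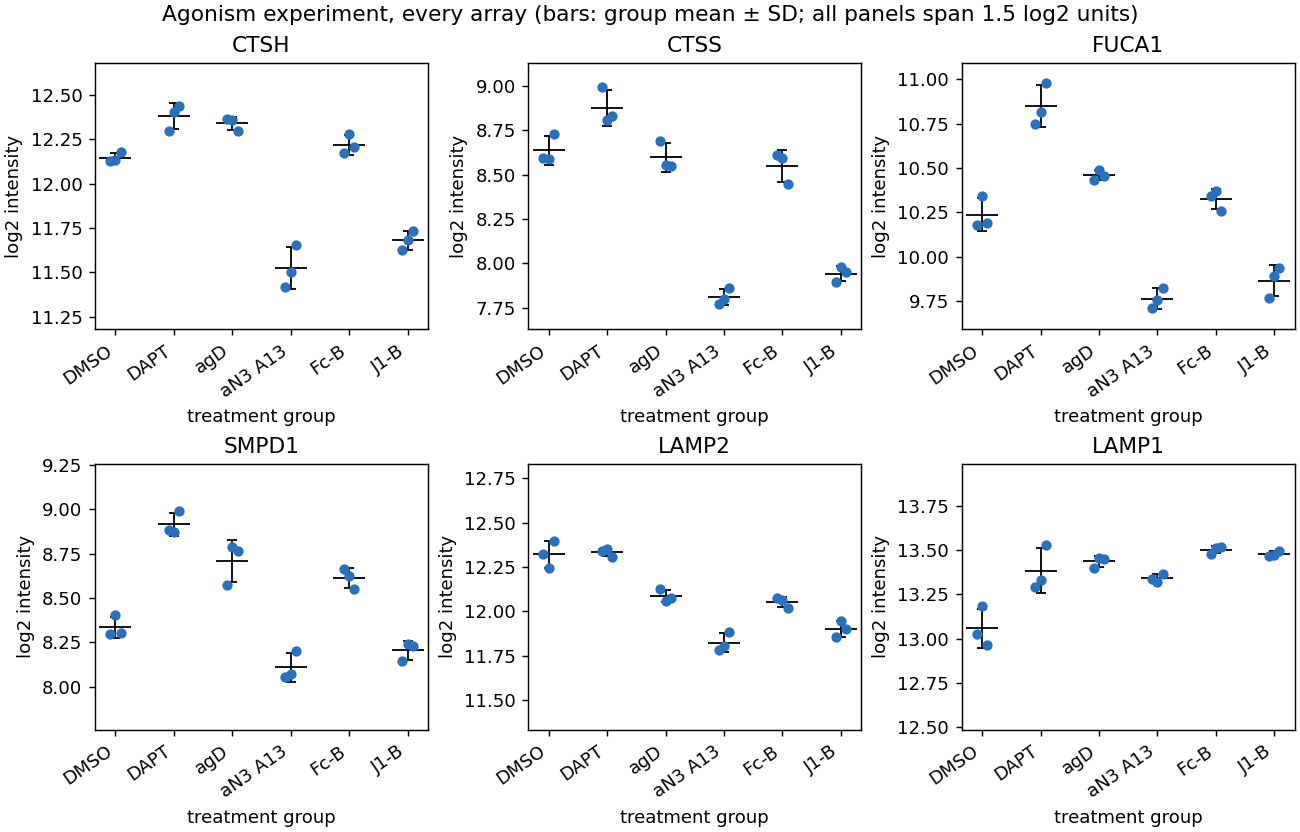
Log2 intensity on every array of the 6 agonism groups for CTSH, CTSS, FUCA1, SMPD1, LAMP2 and LAMP1; points are arrays, bars are means ± SD, and all panels span the same range of 1.5 log2 units. The A13 and J1-B arrays are the lowest for the first 4 genes, and LAMP1 lies between 13.29 and 13.53 on all arrays of the 5 groups that had DAPT.

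**Figure D5:**
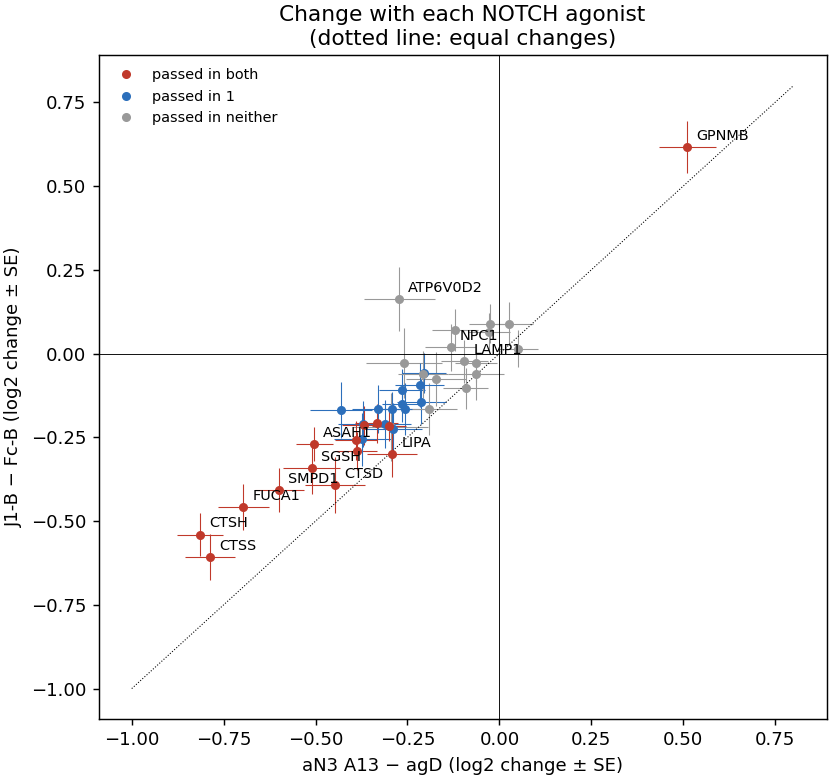
Change with A13 against agD (horizontal) and with J1-B against Fc-B (vertical) for the 43 genes, in log2 units with SE bars; the axes share no arrays. Most genes lie in the lower left, CTSH and CTSS farthest out, and GPNMB lies in the upper right at 0.51 and 0.62.

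Among the other lists, where 9.02% of all genes fell with A13 and 5.14% with J1-B, A13 gave 7 falls and 1 rise of 16 other V-ATPase subunits, 7 falls and 1 rise of 21 other hydrolases, 6 falls of 16 autophagy genes and 3 falls of 17 genes of the TFEB family and nutrient sensing. It gave 2 falls and 2 rises of 18 other membrane proteins and 2 falls of 9 sorting genes. In the same lists J1-B gave 4 falls and 1 rise of the V-ATPase subunits, 5 falls of the hydrolases, 1 fall of the autophagy genes, 2 falls of the TFEB family and nutrient genes, 2 of the membrane proteins and 1 of the sorting genes. The median change of the autophagy genes was -0.14 with A13 and -0.02 with J1-B. Of the 9 genes with CACGTG in the promoter window 6 fell with A13, as did 12 of the 19 without it, with medians of -0.37 and -0.26.

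Continued DAPT was set against DMSO to show what the inhibitor does to cells with their own Notch activity. Of the 43 genes 25 rose and 0 fell (12.4% and 8.31% of all genes), with a median of 0.22 against 0.02 for all genes. With each array centred on its median, 20 rose and 1 fell, and of all calls 1867 of 4076 were higher in place of 2446 of 4089. DAPT arrays lay above all DMSO arrays for 27 of 43 genes (19.1% of all genes).

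FUCA1 read 10.18, 10.34 and 10.19 with DMSO and 10.75, 10.81 and 10.98 with DAPT, a rise of 0.61 ± 0.07 (1.53-fold, adjusted p = 1.21e-05). CLN3, a membrane protein lost in juvenile neuronal storage disease, read 10.23, 10.59 and 10.32, then 10.93, 10.95 and 11.03, a rise of 0.59 ± 0.08 (adjusted p = 5.15e-05). SMPD1 read 8.30, 8.40 and 8.30, then 8.88, 8.88 and 8.99 (0.58 ± 0.07, adjusted p = 1.5e-05), although its brightest probe set without an _s_at or _x_at ending gave -0.02 ± 0.08. In none of the 3 did the groups overlap. CTSD read 10.20, 10.43 and 10.11, then 10.74, 10.73 and 10.81 (0.52 ± 0.08, adjusted p = 0.000293), and GAA, the acid alpha-glucosidase, 10.08, 10.12 and 10.11, then 10.42, 10.67 and 10.65 (0.48 ± 0.10, adjusted p = 0.00238).

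By role, the rises were 4 of 5 membrane proteins, 5 of 8 cathepsins, 4 of 8 glycosidases, 3 of 4 sulfatases, 4 of 6 lipid genes, 4 of 7 V-ATPase genes and TPP1. Some of these rest on the probe set: a second bright ASAH1 probe set gave -0.11 in place of 0.42, the TPP1 probe set without an _s_at or _x_at ending -0.01 in place of 0.28, and the mean of the NPC1 probe sets -0.05 in place of 0.21. LAMP1 rose by 0.32 ± 0.07, from 13.03, 13.18 and 12.97 to 13.29, 13.33 and 13.53. LAMP2 (0.01 ± 0.05, 95% interval -0.10 to 0.12), MCOLN1 (-0.06), TFEB (0.11) and GPNMB (-0.15) did not pass. Of the 26 genes that fell with A13, 17 rose with DAPT, which is 65.4% of the first list and 68% of the second, and for all genes the shares were 56.4% and 41.2%. Of the 13 that fell with J1-B, 10 rose with DAPT (76.9% and 40%, against 53.2% and 22.1% for all genes). None of these pairs of comparisons shares arrays.

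The agD plates show the state after DAPT was washed out with no agonist added. Against continued DAPT 9 genes fell and 3 rose (5.62% and 4.15% of all genes). IDS fell most, from 10.43, 10.36 and 10.43 to 9.65, 9.81 and 9.97 (-0.60 ± 0.08, adjusted p = 6.05e-05). FUCA1 fell by 0.39 ± 0.07, ATP6V0D2 by 0.38 ± 0.10 and CTSS by 0.28 ± 0.07. ATP6V0D2, a subunit of the pump's membrane part, read 8.82, 8.95 and 8.95 with DAPT and 8.70, 8.53 and 8.36 with agD, and no array overlapped in these 4 genes. LIPA, LAMP2, ASAH1, CD63 and HEXA fell by 0.20 to 0.26. Of 13 alternatives, the call was lost under 7 for HEXA, 6 for CD63, 4 for LIPA, 1 for ASAH1 and 0 for LAMP2. The change reached 0.02 for HEXA and -0.04 for LIPA. NPC1 rose by 0.31 ± 0.07, from 8.77, 8.75 and 8.92, GPNMB by 0.31 ± 0.08 and MCOLN1 by 0.24 ± 0.06. These calls were lost under 2 of 13 alternatives for NPC1, 5 of 13 for GPNMB and 3 of 12 for MCOLN1. Those of ATP6V0D2 and CTSS were each lost under 4 of 13, and those of IDS and FUCA1 under 0. The count of 12 was 6 without DAPT array 1 and 5 without agD array 2. The agD plates also had IgG, and the DAPT plates a second addition at 22 h.

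Against DMSO plates, which had never had DAPT, 19 genes were higher on agD plates and 5 lower (17.9% and 12.6% of all genes). Among genes above the median level alone, 26 of 40 passed (21 higher and 5 lower), as did 59.3% of all such genes. By that measure the set lay near other bright genes in this comparison. Centred on array medians, 14 were higher and 5 lower, and of all calls 2602 of 5598 were higher in place of 3548 of 6049. GAA was higher by 0.64 ± 0.10 (10.83, 10.86 and 10.54 with agD), CLN3 by 0.54 ± 0.08 (10.94, 10.95 and 10.88), and ATP6AP1, an accessory protein of the V-ATPase, by 0.53 ± 0.07 (11.98, 12.09 and 11.97 against 11.44, 11.62 and 11.41). NPC1 was higher by 0.52 ± 0.07 (8.65, 8.51 and 8.66 with DMSO), LAMP1 by 0.38 ± 0.07, TFEB by 0.23 ± 0.07 and MCOLN1 by 0.18 ± 0.06. The MCOLN1 call was lost under 7 of 12 alternatives and the TFEB call under 3 of 13. The NPC1 call was lost under 1 of 13, the mean of its probe sets (0.04). GAA, CLN3, ATP6AP1 and LAMP1 kept their calls under all alternatives. For TFEB the DMSO arrays read 7.72, 7.84 and 7.73, below all agD arrays, and for MCOLN1 8.67, 8.70 and 8.61.

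LIPA was lower by 0.34 ± 0.07, from 12.37, 12.14 and 12.33 to 11.96, 11.90 and 11.98. ATP6V1C1 was lower by 0.25 ± 0.06, from 11.78, 11.58 and 11.74 to 11.43, 11.45 and 11.48. LAMP2 was lower by 0.23 ± 0.05, from 12.33, 12.24 and 12.39, and IDS by 0.22 ± 0.08, from 10.04, 10.14 and 9.93. NPC2 was the other gene to be lower (-0.21 ± 0.07). The calls of LIPA, ATP6V1C1 and LAMP2 were each lost under 1 of 13 alternatives, the mean of all probe sets. Their smallest changes were -0.12, -0.09 and -0.11, in that order. Those of IDS and NPC2 were each lost under 6 of 13. ASAH1, counted among the 19 higher at 0.20, was at -0.45 on its second bright probe set. The DMSO arrays lay above the agD arrays for LIPA, ATP6V1C1 and LAMP2 and overlapped them for IDS. Earlier DAPT, the IgG and the DMSO given at 22 h all separate these groups and cannot be told apart.

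In the antagonism experiment cells had no earlier DAPT. With DAPT against control 1 gene of 43, FUCA1, rose and 0 fell (0.202% and 0.152% of all genes), and 16 of 43 had an unadjusted p under 0.05, as did 13% of all genes. FUCA1 read 10.69, 10.76 and 10.76 in control, 11.26, 11.38 and 11.36 with DAPT and 11.26 and 11.19 with A4. Both treated groups lay above all controls. It rose by 0.59 ± 0.07 with DAPT (1.51-fold, adjusted p = 0.00978) and changed by 0.49 ± 0.07 with A4 (1.4-fold, adjusted p = 0.0579). The call with DAPT was lost without control 1 (0.5720, adjusted p = 0.0727), DAPT array 2 (0.5700, adjusted p = 0.107) or DAPT array 3 (0.5813, adjusted p = 0.0513). Without control 2, the array that stood apart, 4 genes were called with DAPT and 1 with A4. Of all genes 6.06% were then called with DAPT in place of 0.354%, and 0.485% with A4 in place of 0.101%.

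With A4 against control 0 of 43 passed by limma (0.101% of all genes). An unadjusted p under 0.05 was found for 5 of 43, or 11.6%, near the 9.28% of all genes. The changes with DAPT and with A4 are measured against the same 3 controls and are given side by side. The sialidase NEU1 changed by 0.36 ± 0.06 and 0.22 ± 0.07, SCARB2 by 0.36 ± 0.07 and 0.23 ± 0.08, and CTSH by 0.28 ± 0.08 and 0.28 ± 0.09. LAMP2 read 12.01, 12.07 and 12.01 in control, 12.22, 12.27 and 12.25 with DAPT and 12.13 and 12.17 with A4 (0.22 ± 0.06 and 0.12 ± 0.07). All of these missed the threshold.

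GPNMB read 8.12, 7.59 and 8.19 in control, 7.81, 7.83 and 8.02 with DAPT and 7.96 and 7.98 with A4, and the groups overlapped. Its change was -0.08 ± 0.15 (95% interval -0.41 to 0.25) and 0.01 ± 0.16. TFEB (-0.04 and 0.11), LAMP1 (0.05 and 0.04) and MCOLN1 (-0.16 and -0.19) did not pass. Treated arrays lay above all control arrays for 17 of 43 genes with DAPT (8.73% of all genes) and 24 with A4 (12.6%). The median change of the 43 was 0.09 with DAPT and 0.11 with A4, and that of all genes -0.004 and 0.005.

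The DAPT effects of both experiments share no arrays, and their difference was fitted over all 26 arrays in a comparison added after the data were seen. It was negative and passed for 8 of the 43 genes and positive for 0 (3.27% and 2.85% of all genes). The change with DAPT in these genes was thus higher in the agonism experiment, and in the antagonism experiment alone none of them passed. With each array centred on its median, 4 were negative and 3 positive. CTSD differed most. Its antagonism arrays read 11.34, 10.98 and 11.23 in control and 10.78, 10.81 and 11.23 with DAPT, which overlapped, against the rise above, and the difference was -0.76 ± 0.16 (adjusted p = 0.00842). GAA, which read 10.91, 10.80 and 10.83 in control and 10.68, 10.78 and 10.95 with DAPT, differed by -0.53 ± 0.14, and the arylsulfatase ARSA by -0.49 ± 0.13. ATP6AP1 differed by -0.36 ± 0.10. For FUCA1, which rose in both, the difference was -0.02. The experiments differ in plating density, IgG and earlier treatment, and no call of these 8 was kept under every alternative.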

How the data were processed

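Gene expression was measured on 26 arrays, and the deposited table holds 1 linear intensity per probe set and array (7.12 to 32597). The submitters' processing notes list RMA and R 2.10 without saying what each was used for. Where RMA is applied, it makes array distributions alike, which reduces a shift common to most genes. Of 54675 probe sets, 41091 name 1 gene, 1801 several and 11783 none; names come from the platform annotation, and 41037 gene IDs matched RefSeq (GRCh38.p14), with 0 symbols changed. Of the 43 genes 27 had several probe sets, 21 used an _s_at or _x_at probe set and 40 lay above the median gene level. The table held 0 columns of other samples.

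Intensities were converted to log2 and tested by limma's moderated linear model (version 3.58.1, R 4.3.3), all groups of an experiment in 1 fit, with Benjamini-Hochberg adjustment over 19775 genes. Each change is a difference of group means with its SE. The number of arrays limits precision: the median SE over the set was 0.067 in the agonism experiment. Per-array values are given for GPNMB, TFEB, MCOLN1, LAMP1, LAMP2 and up to 4 top rises and 4 top falls per comparison. Members and lists were chosen with earlier results of these data known. Alternatives were other scaling, probe set, filter and variance settings and each array left out. The fit was tested on simulated data. Figures used matplotlib 3.10.9.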

Additional observations from a re-analysis of the deposited data

Results flagged for a closer look

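For 8 genes the effect of DAPT differed between the experiments by limma's test of the difference itself (antagonism minus agonism, log2). The values were -0.76 for CTSD, -0.53 for GAA, -0.49 for ARSA, -0.36 for ATP6AP1, -0.36 for MAN2B1, -0.30 for ATP6V0D1, -0.30 for CTSA and -0.27 for PSAP. In the antagonism experiment alone none of the 8 passed, with changes between -0.24 (CTSD) and 0.09 (PSAP), while all 8 rose with DAPT in the agonism experiment. The number of genes that passed ran from 1 to 14 when 1 array was left out. It was 1 without antagonism control 1, antagonism DAPT array 1 or 2, or agonism DMSO array 1 or 3 or DAPT array 3. It was 2 without agonism DAPT array 2, 3 without antagonism control 3, and 14 without antagonism control 2 or agonism DMSO array 2. Of all genes 14.3% and 12.1% passed in the last 2 settings, against 6.12% with all arrays.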

How the results depend on the processing

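No paired analysis was possible because the labels give no replicate numbers, batches or dates. The rises of GPNMB with beads and with either agonist were kept under all alternatives. Of the genes called, 19 of 27 kept their call under all alternatives for A13 against agD, 6 of 14 for J1-B against Fc-B, 13 of 25 for DAPT against DMSO, 10 of 24 for agD against DMSO and 3 of 12 for agD against DAPT. With _x_at and _s_at probe sets removed SMPD1 reversed, at 0.0402 with A13 and -0.0193 with DAPT; only 34 of the genes then have a probe set, and the counts were 16 with A13, 15 for agD against DMSO, 13 for DAPT against DMSO and 5 for the difference of DAPT effects. With the mean of all probe sets the counts were 1 for Fc-B against agD, 3 for J1-B against A13 and 3 for beads against antibody. With only the compared groups in the fit they were 1 for Fc-B, 3 for J1-B against A13, 7 for agD against DAPT and 0 for the difference of DAPT effects. Median centring gave 3 for J1-B against A13. With only genes above the median level, beads against antibody had 11 of 40 (29.6% of all genes so filtered). The difference of DAPT effects had 14 of 40 (20.2%), antagonism DAPT 3 of 39 (2.73%) and A4 1 of 39 (1.08%). A13 against agD had 30 of 40 (34.4%), J1-B against Fc-B 20 of 40 (21.4%) and DAPT against DMSO 28 of 40 (46.1%). With an intensity trend and robust prior beads against antibody had 9 (14.5% of all genes) and the difference of DAPT effects 14 (9.3%). Antagonism DAPT then had 5 (1.55%) and A4 1 (0.728%). Repeated quantile normalization gave 2 for antagonism DAPT (0.971%) and 1 for A4 (0.283%). With 1 array left out the counts ran from 1 to 2 for Fc-B against agD, 2 to 4 for J1-B against A13, 4 to 7 for beads against antibody, 22 to 27 for A13, 10 to 14 for J1-B against Fc-B, 5 to 12 for agD against DAPT, 16 to 24 for agD against DMSO, 18 to 26 for DAPT against DMSO, 0 to 4 for antagonism DAPT, 0 to 1 for A4 and 1 to 14 for the difference of DAPT effects, where a lone A4 array was taken to have the spread of the other groups. The cause of these moves was not tested, apart from the smaller number of genes noted. Of the values of single genes named, 1235 kept their side of the threshold, 96 lost and 21 gained a call. A further 2 changed sign with a call in at least 1 of the fits compared. Changes of sign without a call in either fit are counted among the 1235. Background correction and a slide block were not run, since only the processed table was used here.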
